A study of Gallus gallus with 12 samples.

Results

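The hearts of Tibetan chicken embryos incubated in hypoxia were compared with the hearts of hypoxic embryos of a pair of lowland breeds, Shouguang and Dwarf Recessive White. The comparison rests on 6 of the 12 Affymetrix chicken genome arrays of the series, chosen by their titles: 2 Tibetan hypoxia arrays, 2 Shouguang hypoxia arrays and 2 Dwarf Recessive White hypoxia arrays. The other 6 arrays hold hearts of the same breeds incubated in normoxia, again 2 per breed. They do not enter the difference between breeds in hypoxia, but they share in the estimate of the spread between arrays. All embryos came from fertilized full-sib eggs, per the series' design text, and no genetic or drug treatment other than the incubation condition is labelled. The labels do not give the family of an array, so a difference between breeds and one between families cannot be told apart. The sources used here do not give the oxygen level, the embryos' age or sex, or how many hearts were pooled for an array. Nothing in the labels says that the 2 arrays of a group came from separate embryos, so the p-values below measure only the spread between these samples, and that spread may be technical.

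The Tibetan chicken is a breed of the Tibetan plateau, where low oxygen is a selective pressure on the egg, and Shouguang and Dwarf Recessive White chickens are kept at low altitude. Cells sense falling oxygen through prolyl hydroxylases of the EGLN family. When these slow down, the alpha subunits of hypoxia-inducible factor (HIF) escape degradation and switch on genes for glycolysis, vessel growth, iron uptake and the restraint of mitochondrial pyruvate use. The embryonic heart drives the circulation through the chorioallantoic membrane, where the egg takes up oxygen.

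All arrays had been scaled by the authors to the same trimmed mean signal of 500.1, and their median signals lay between 134 and 155. The heart label was met by the data: all 11 heart muscle markers looked for, among them MYH15, MYL2, TNNT2 and NKX2-5, were measured on every hypoxia array, with a lowest signal of 636.8. Their summed signal was 372809 to 406455 on the Tibetan arrays, 364261 to 405916 on the Shouguang arrays and 351052 to 362317 on the Dwarf Recessive White arrays. The arrays differed in W-linked signal, which only female birds produce. The mean log2 level of 14 W-linked genes was 9.60 and 9.42 on the Tibetan hypoxia arrays, 8.09 and 8.25 on the Shouguang arrays, and 9.49 and 8.15 on the Dwarf Recessive White arrays. Tibetan therefore stood above both Shouguang arrays and 1 of the Dwarf Recessive White arrays in this measure. The median log2 difference, Tibetan minus the lowland mean in hypoxia, was 1.16 for W-linked genes, -0.12 for 478 Z-linked genes and -0.00 for autosomal genes. Sex is not labelled, so a difference between breeds and one in the mix of sexes cannot be fully told apart.

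Each difference below is Tibetan minus the mean of the lowland breeds on the log2 scale, with both lowland breeds weighted equally, ± the limma standard error (SE). Signals are linear and are listed as replicate 1 and replicate 2 of each breed. Across 23063 probe sets, 18 differed at an adjusted p under 0.05 (Benjamini-Hochberg over all tested probe sets), which is 0.0780% of those tested. Of these, 8 were higher in Tibetan (0.0347%) and 10 were lower (0.0434%). At an unadjusted p under 0.05 there were 1982 probe sets (8.59%), where 1153 would be reached with no difference anywhere. The median SE was 0.229 and the median difference over all probe sets was 0.02.

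A probe set was counted as outside both lowland breeds when both Tibetan arrays lay above, or both lay below, all 4 lowland arrays. By that count alone 3796 probe sets, or 16.5%, were outside (8.72% higher and 7.74% lower in Tibetan), so lying outside on its own is common with so few arrays. Of the 18 that passed the test, 16 were also outside, 6 of them higher and 10 lower in Tibetan. These 16 hold 13 named genes. TRIM47, HMOX2, LOC770705 and CMTM8 were higher in Tibetan, and NUF2, SLC4A1AP, NSD1, TENM2, C4H4ORF32, LIPT2, SRD5A3, MPP6 and HSPB9 were lower. None of the 13 is placed on the Z or the W chromosome by the GRCg7b gene table.

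**Figure D1:**
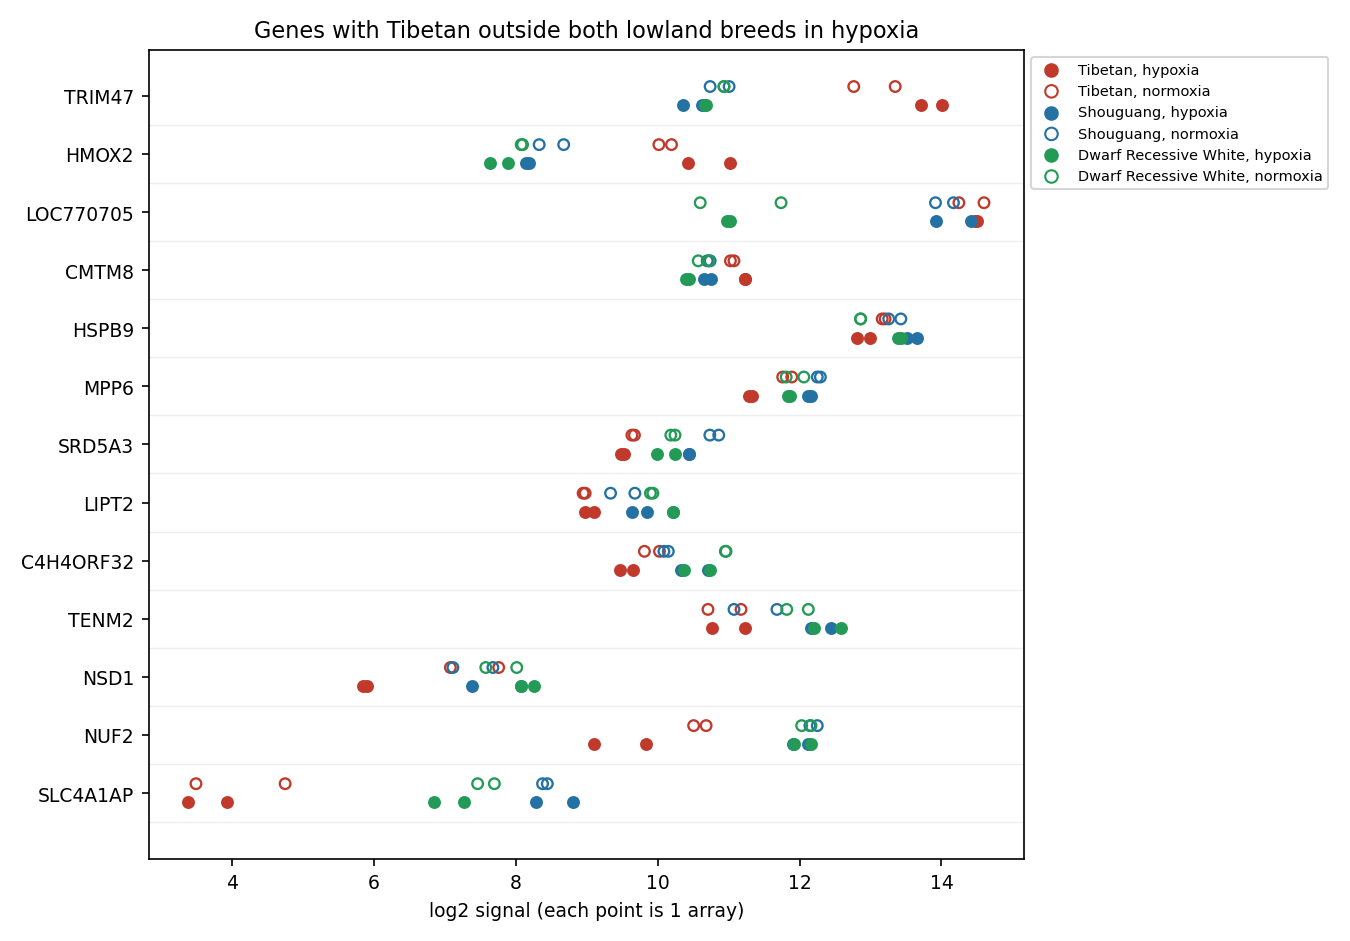
Log2 signal of the 13 named genes that passed the hypoxia test with Tibetan outside both lowland breeds; each point is 1 array, filled for hypoxia and open for normoxia, coloured by breed. TRIM47 and HMOX2 lie far to the right in Tibetan and NUF2 and SLC4A1AP far to the left, in both conditions, while the Tibetan normoxia points of NSD1 and HSPB9 are not set apart from the lowland ones.

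HMOX2 encodes the constitutive haem oxygenase, which uses oxygen to break haem into biliverdin, carbon monoxide and iron. Its signal was 2076 and 1382 on the Tibetan arrays, 281.9 and 292.9 on the Shouguang arrays, and 237.9 and 199.6 on the Dwarf Recessive White arrays. The lower Tibetan array was thus several times brighter than the brightest lowland array. The difference of this reported probe set was 2.76 ± 0.19 (n = 2 Tibetan and 4 lowland arrays, adjusted p = 4.69e-05), a 6.77-fold higher signal in Tibetan. It passed against Shouguang alone (2.56 ± 0.22, adjusted p = 0.000564) and against Dwarf Recessive White alone (2.96 ± 0.22, adjusted p = 0.000114). The other, brighter HMOX2 probe set differed by 0.45 ± 0.13 and did not pass (adjusted p = 0.326).

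LIPT2 and SRD5A3 were lower in Tibetan. LIPT2 encodes the mitochondrial octanoyl transferase that begins the making of lipoic acid, the cofactor of pyruvate dehydrogenase and related complexes. Its signal was 504.1 and 548.2 in Tibetan, 920.9 and 800.5 in Shouguang, and 1195 and 1189 in Dwarf Recessive White, a difference of -0.94 ± 0.14 (adjusted p = 0.0423). The lowland arrays fell in 2 steps, with Dwarf Recessive White highest and Shouguang between it and Tibetan. SRD5A3 encodes the polyprenol reductase of dolichol synthesis, needed for N-glycosylation. Its signal was 716.7 and 737.7 in Tibetan, 1392 and 1395 in Shouguang, and 1018 and 1213 in Dwarf Recessive White (-0.78 ± 0.12, adjusted p = 0.0427). Here Shouguang was the higher of the lowland breeds.

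TRIM47, a member of the tripartite motif family of ubiquitin ligases, had the smallest p of the comparison. Its reported probe set read 16530 and 13440 in Tibetan, 1583 and 1312 in Shouguang, and 1641 and 1631 in Dwarf Recessive White. The 4 lowland arrays sat close together and the Tibetan arrays 9.71-fold above their mean on the log2 scale (3.28 ± 0.16, adjusted p = 1.69e-06). The difference was 3.37 ± 0.18 from Shouguang (adjusted p = 6.67e-06) and 3.19 ± 0.18 from Dwarf Recessive White (adjusted p = 1.29e-05). The other TRIM47 probe set differed by -0.19 ± 0.20 from the lowland mean.

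NUF2 and NSD1 were lower in Tibetan. NUF2 encodes a subunit of the NDC80 complex, which ties the kinetochore to spindle microtubules. Its signal was 552.7 and 910.9 in Tibetan, 3847 and 4435 in Shouguang, and 3895 and 4603 in Dwarf Recessive White. Both Tibetan arrays were far under all lowland arrays, and the lowland breeds did not separate from each other. The difference of this reported probe set was -2.56 ± 0.17 (adjusted p = 3.53e-05), a 5.89-fold lower signal. It passed against Shouguang (adjusted p = 0.0002) and against Dwarf Recessive White (adjusted p = 0.000114). The other NUF2 probe set differed by -0.74 ± 0.13 and did not pass (adjusted p = 0.0644). NSD1, a histone H3 lysine methyltransferase, read 57.66 and 59.69 in Tibetan, 167.9 and 268.4 in Shouguang, and 304.8 and 269.1 in Dwarf Recessive White (-2.07 ± 0.32, adjusted p = 0.0423). Both Tibetan signals of NSD1 were under the dim limit of 79.5, the signal at which probe sets were filtered. With such signals raised to the limit the difference was -1.63 and did not pass the test.

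CMTM8 was higher and MPP6 and TENM2 were lower in Tibetan. CMTM8, a membrane protein of the MARVEL family that in human cells promotes uptake of the EGF receptor, read 2411 on both Tibetan arrays, 1614 and 1730 in Shouguang, and 1358 and 1385 in Dwarf Recessive White (0.67 ± 0.10, adjusted p = 0.0423). MPP6, a palmitoylated scaffold protein of the MAGUK family, read 2499 and 2583 in Tibetan, 4562 and 4459 in Shouguang, and 3666 and 3743 in Dwarf Recessive White (-0.69 ± 0.10, adjusted p = 0.0326). Replicates of each breed lay close together in both genes, and the 3 breeds formed 3 separate steps. TENM2, a teneurin that acts in cell adhesion at synapses, read 1743 and 2408 in Tibetan, 4598 and 5564 in Shouguang, and 6172 and 4739 in Dwarf Recessive White (-1.35 ± 0.20, adjusted p = 0.0423). For TENM2 the lowland breeds overlapped each other.

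HSPB9 belongs to the small heat shock proteins. It read 8118 and 7173 in Tibetan, 12910 and 11740 in Shouguang, and 10700 and 10990 in Dwarf Recessive White, a difference of -0.60 ± 0.09 (adjusted p = 0.0326). SLC4A1AP, also called kanadaptin, was lower in Tibetan. Its reported probe set read 15.19 and 10.47 in Tibetan, 312.8 and 446.9 in Shouguang, and 155 and 115 in Dwarf Recessive White (-4.15 ± 0.45, adjusted p = 0.00457). Both Tibetan signals were under the dim limit, and with such signals raised to the limit the difference was -1.49, so its size on the log2 scale is not well measured.

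For C4H4ORF32, an open reading frame for which no role is given here, the signal was 711.3 and 808.3 in Tibetan, 1682 and 1286 in Shouguang, and 1322 and 1712 in Dwarf Recessive White (-0.97 ± 0.15, adjusted p = 0.0423). LOC770705, also with no role given here, read 23220 and 22700 in Tibetan, 15610 and 21910 in Shouguang, and 2012 and 2070 in Dwarf Recessive White (1.90 ± 0.24, adjusted p = 0.0152). The LOC770705 difference lay with Dwarf Recessive White (3.49 ± 0.28, adjusted p = 0.000146), while that from Shouguang was 0.31 ± 0.28 (adjusted p = 0.807) and the nearer Shouguang array lay just under the Tibetan arrays. Of the 3 unnamed probe sets that passed and were outside, the first read 645.4 and 595.6 in Tibetan against 69.29 to 347 on the lowland arrays (1.97 ± 0.24, adjusted p = 0.0114). The second read 375.9 and 483 against 881.2 to 1478 (-1.29 ± 0.19, adjusted p = 0.0423). The last one was higher by 1.31 ± 0.19 (adjusted p = 0.0326), again mostly against Dwarf Recessive White (2.41 ± 0.21).

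The 2 probe sets that passed without lying outside show why both breeds were asked for. Neither has a gene symbol. The first read 4973 and 6265 in Tibetan and 4992 and 7027 in Shouguang, but 48.32 and 48.83 in Dwarf Recessive White. The second read 1240 and 2350 in Tibetan, 10.18 and 4.394 in Shouguang, and 2164 and 360.7 in Dwarf Recessive White. In each, 1 lowland breed was close to Tibetan and the mean of the lowland breeds was set by the other.

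When Tibetan was set against each lowland breed in turn, 12 probe sets passed against Shouguang (0.0520% of those tested) and 30 against Dwarf Recessive White (0.130%). These 2 comparisons share the Tibetan arrays. Of the 16 probe sets outside both, the 4 of TRIM47, HMOX2, NUF2 and SLC4A1AP passed against each lowland breed alone. A further 5 passed against Shouguang only, 6 against Dwarf Recessive White only, and that of C4H4ORF32 against neither (-0.96, adjusted p = 0.135, and -0.99, adjusted p = 0.0735). SLC4A1AP was lower by -4.89 against Shouguang (adjusted p = 0.00243) and by -3.40 against Dwarf Recessive White (adjusted p = 0.0286).

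The threshold falls in a dense stretch of values. Just inside it, SRD5A3 had an adjusted p of 0.0427. Just outside it and with Tibetan outside both breeds were FRRS1L (-0.91 ± 0.15, adjusted p = 0.0636), TCF25 (2.76 ± 0.46, adjusted p = 0.0636), MOXD1 (0.60 ± 0.10), FEM1C (-0.70 ± 0.12) and HOMER2 (0.64 ± 0.11), the last 3 with an adjusted p of 0.0637. TCF25 read 365.3 and 388.9 in Tibetan and 32.08 to 129.1 on the lowland arrays, 3 of which were under the dim limit. In all, 297 probe sets were outside with at least a 2-fold difference, and 10 of these passed the test.

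Most of these genes are read by more than 1 probe set, and the probe sets of a gene did not always move alike. Of the 13 genes, 10 had other tested probe sets, 17 in all. Of these, 12 had the sign of the reported one, 4 were outside in the same direction, 0 passed the test and 16 had a smaller absolute difference. The other probe set of TRIM47 read 351.1 and 471.6 in Tibetan and 425.9 to 549.7 on the lowland arrays (-0.19 ± 0.20). That of HMOX2 read 2042 and 2188 in Tibetan and 1268 to 2074 on the lowland arrays (0.45 ± 0.13, adjusted p = 0.326), overlapping Shouguang. Its normoxia difference was -0.13. It was the brighter HMOX2 probe set by mean log2 signal, so it stands for HMOX2 where 1 probe set per gene is used. For NUF2 the other probe set was lower in Tibetan as well, with 1081 and 1238 against 1644 to 2278 (-0.74 ± 0.13, adjusted p = 0.0644), and it was outside in both conditions. Both other probe sets of MPP6 were outside and lower (-0.57 ± 0.19 and -0.76 ± 0.15). Those of C4H4ORF32 differed by -0.24 ± 0.17 and -0.23 ± 0.17 and were not outside. The other probe sets of SLC4A1AP differed by -0.31 ± 0.29, 1.71 ± 0.62 and -0.37 ± 0.22, and those of NSD1 by 0.61, 0.08, -0.47 and 0.12. A probe set reads a short stretch of the transcript, so a sequence difference between breeds under the probes, another isoform and another transcript level cannot be told apart on these arrays.

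**Figure D2:**
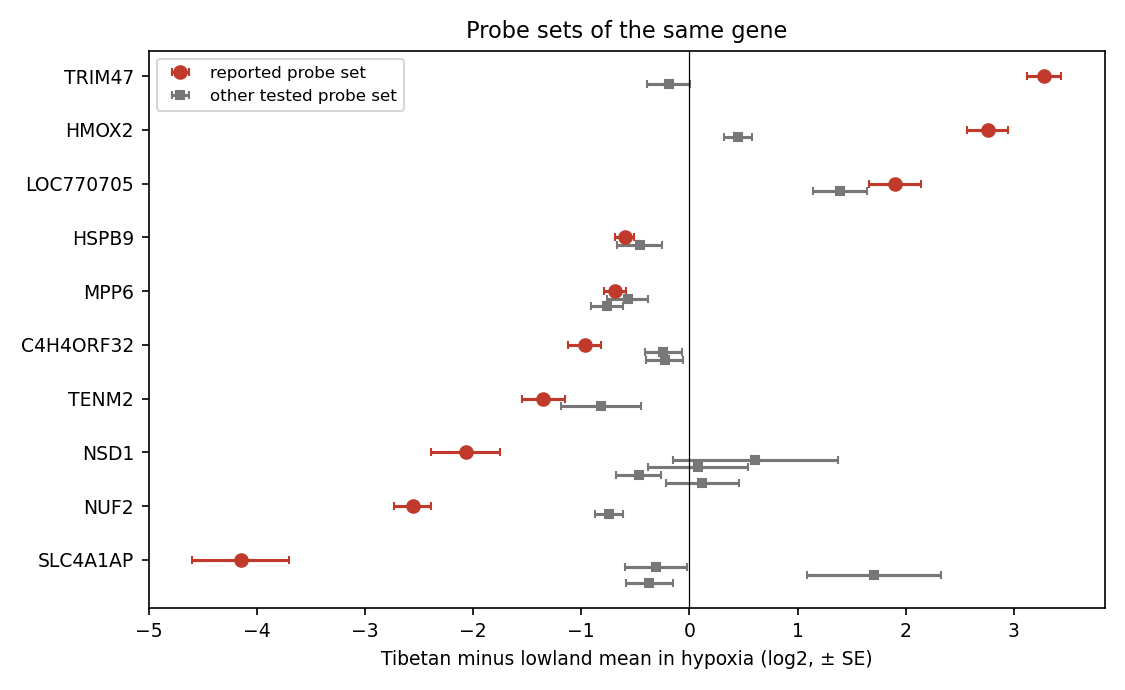
Tibetan minus lowland mean in hypoxia (log2, ± SE) for the reported probe set (red) and every other tested probe set (grey) of the 10 genes that have several. The probe sets of HMOX2, LOC770705, HSPB9, MPP6, C4H4ORF32, TENM2 and NUF2 lie on the same side of 0, while those of TRIM47, NSD1 and SLC4A1AP do not. Among the former, only MPP6 and NUF2 have their other probe sets outside both lowland breeds.

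The genes next to the 13 in the GRCg7b gene order were looked up as well. Of 26 tested neighbours, 0 passed the test and 3, or 11.5%, were outside, against 16.9% of all genes with 1 probe set per gene. The 3 were GPD1L beside CMTM8 (0.79), LOC772158 beside HSPB9 (-0.38) and KDR beside SRD5A3 (0.45).

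The normoxia arrays show whether the same genes set the Tibetan heart apart without low oxygen. Their values do not enter the hypoxia differences, but they come from the same breeds and may come from the same families. Both tests use the spread estimated over all 12 arrays, so the normoxia arrays had a part in which probe sets passed in hypoxia. In normoxia 11 probe sets passed the same test (0.0477%). Of the 16 probe sets found in hypoxia, 15 had the same sign in normoxia, where 61.2% of all probe sets did. Tibetan lay outside both lowland breeds in the same direction in 12 of the 16, or 75%, and 7 of the 16 passed the normoxia test. Over all probe sets, whether outside in hypoxia or not, 10.6% were outside in normoxia in the direction of the hypoxia difference. A closer comparison is with genes outside in hypoxia. With 1 probe set per gene these numbered 1740, and 363 of them were outside in the same direction in normoxia. In a fit of the 6 hypoxia arrays alone, 11 probe sets passed, 9 of them outside both breeds, and 7 of these 9 were outside in the same direction in normoxia, a count added after seeing the data. Of the 9, 7 belong to the 16 and the others read CSNK1E and PPP6R3. TRIM47 read 6958 and 10430 in Tibetan normoxia and 1711 to 2059 on the lowland normoxia arrays (2.15 ± 0.16, adjusted p = 0.000232). HMOX2 read 1173 and 1037 against 270.2 to 409.2 (1.81 ± 0.19, adjusted p = 0.00643). NUF2 read 1645 and 1456 against 4183 to 4872 (-1.55 ± 0.17, adjusted p = 0.00643). For all of these reported probe sets the normoxia difference had the direction of the hypoxia one, and SLC4A1AP (-3.87 ± 0.45, adjusted p = 0.00756) and SRD5A3 (-0.85 ± 0.12, adjusted p = 0.0341) followed. In normoxia the other probe sets differed by 0.22 for TRIM47, -0.13 for HMOX2 and -0.57 for NUF2. Those of SLC4A1AP differed by -0.11, 0.22 and 0.31, the last with Tibetan above all lowland arrays.

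Of the 16, 4 were not outside in the same direction in normoxia: HSPB9, NSD1, MPP6 and TENM2. HSPB9 read 9188 and 9452 in Tibetan, 9791 and 11020 in Shouguang, and 7431 and 7448 in Dwarf Recessive White, so Tibetan lay between the lowland breeds (0.08 ± 0.09, adjusted p = 0.897). NSD1 read 216.8 and 135.3 in Tibetan and 138.7 to 258.7 on the lowland arrays (-0.18 ± 0.32, adjusted p = 0.95). MPP6 (-0.28, adjusted p = 0.544) and TENM2 (-0.73, adjusted p = 0.379) kept the sign of the hypoxia difference, with Tibetan overlapping a lowland breed. Whether the breed difference itself depended on oxygen was tested as the hypoxia difference minus the normoxia difference. No probe set passed in the limma fit (0.00%). An unadjusted p under 0.05 was reached by 729, fewer than the 1153 that would be reached with no difference anywhere. Among probe sets with 1 gene symbol, the smallest p belonged to HSPB9 (-0.68 ± 0.12, adjusted p = 0.9999). TRIM47 (1.13 ± 0.22), ELMOD3 (-2.84 ± 0.61), NLN (2.85 ± 0.65) and CCN2 (-0.86 ± 0.20) followed, each with the same adjusted p. ELMOD3 and NLN have signals under the dim limit, and with these raised to it the differences between conditions were -1.05 ± 0.40 and 1.32 ± 0.38. A gene that passed in hypoxia and not in normoxia is therefore not shown to depend on the condition.

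**Figure D3:**
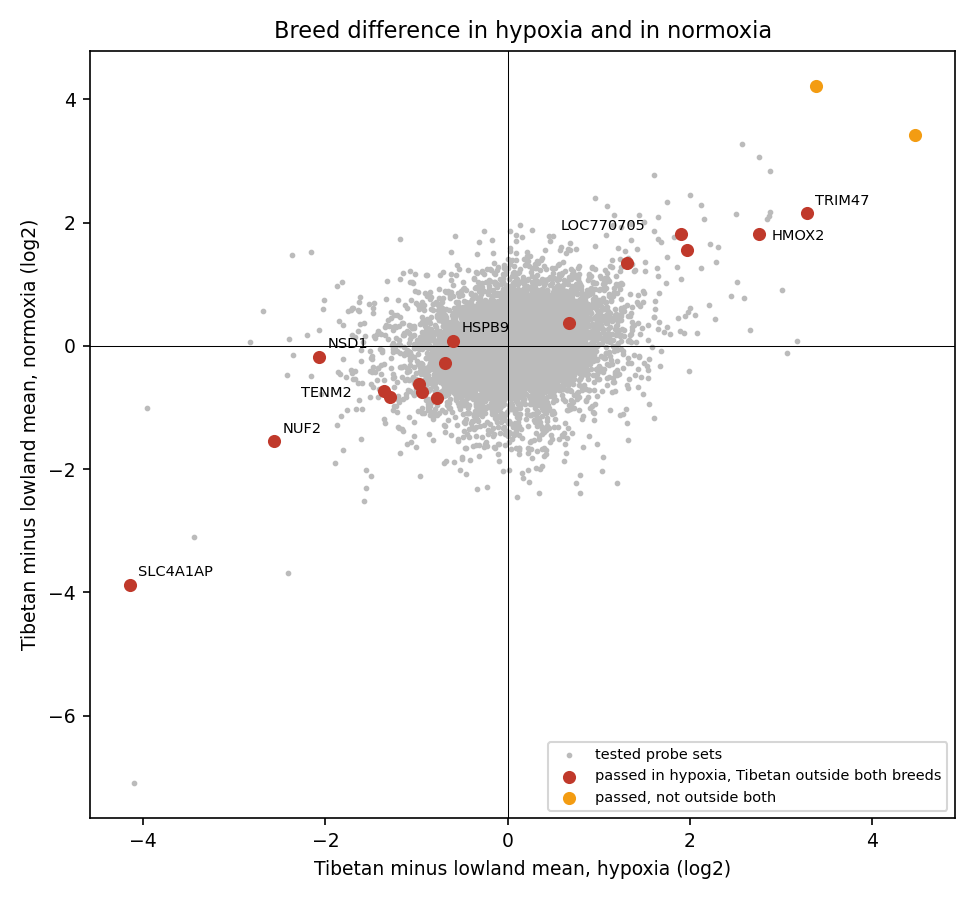
Tibetan minus lowland mean (log2) in hypoxia (x axis) and in normoxia (y axis) for the 23063 tested probe sets in grey, with the 16 that passed in hypoxia outside both breeds in red and the 2 that passed without lying outside in orange. Of the 16 red points, 15 have the same sign on both axes, and HSPB9 lies near 0 in normoxia.

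The calls differ in how far they rest on particular arrays. Over the alternative settings that held its reported probe set, TRIM47 ranged from 3.13 to 3.43, HMOX2 from 2.47 to 3.05 and NUF2 from -2.92 to -2.20. These 3 probe sets passed under every such setting that kept 2 arrays per group. With 1 probe set per gene, HMOX2 was read by its brighter probe set instead, at 0.45 in the main fit. SLC4A1AP ranged from -4.42 to -1.49. LOC770705 was lost without Tibetan hypoxia replicate 1 or 2, Shouguang hypoxia replicate 1, or Dwarf Recessive White hypoxia replicate 1 or 2 (adjusted p up to 0.278). The remaining 8 genes other than SLC4A1AP were each lost when any of these 5 arrays or either Tibetan normoxia array was left out. Each such fit has fewer arrays to estimate the spread, and the cause of the losses was not tested. The adjusted p of these genes was 0.229 to 0.329 with the W-linked level of each array as a covariate. All 8 genes kept the sign of their difference. Of these, CMTM8, SRD5A3 and NSD1 passed in 0 of the 12 fits that leave out an array, C4H4ORF32 in 1, TENM2 in 2, and HSPB9, MPP6 and LIPT2 in 3 each. With the W-linked level of each array as a covariate, 4 probe sets passed, those of TRIM47 (3.28, adjusted p = 6.84e-05), HMOX2 (2.72, adjusted p = 0.00134), LOC770705 and NUF2, and SLC4A1AP had an adjusted p of 0.0507. With the genes of Z and W left out, 18 probe sets passed. This setting could not take out any of the 18 of the main fit. The 13 named genes are not placed on Z or W, and the 5 probe sets without a symbol have no chromosome here.

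Pathways of oxygen and energy were then described with gene lists, with 1 probe set per gene, the brightest. The lists were chosen with earlier results of these data known. For comparison, over all 10276 genes the median difference was -0.01, 49.0% lay above 0, and 16.9% were outside, 7.67% higher and 9.26% lower in Tibetan. An unadjusted p under 0.05 was reached by 9.45% of genes. The normoxia share of all genes outside was 14.9%, with 758 genes higher and 774 lower in Tibetan. Apart from NUF2 and HSPB9, no list member passed the test, and the members named for lying outside were picked after their values were seen. The share outside was 17.1% for contraction and calcium handling and 16.7% for matrix and fibroblast genes. It was 12.3% for cell cycle genes and 9.09% for heat shock and endoplasmic reticulum stress genes. These shares are close to or under the 16.9% of all genes.

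None of the HIF subunits and oxygen sensors passed the test. HIF1A, the oxygen-regulated alpha subunit found in most cells, differed by -0.19 ± 0.13 (adjusted p = 0.74), EPAS1, the HIF-2 alpha subunit, by 0.10 ± 0.16 (adjusted p = 0.905), and EGLN1, the main prolyl hydroxylase, by -0.13 ± 0.13 (adjusted p = 0.817). HIF1A read 1294 and 1560 in Tibetan and 1544 to 1725 on the lowland arrays, so the groups overlapped. Of 11 members, 0 passed, 0 were outside and higher, and 3 were outside and lower: ARNT2, SIAH1 and SIAH2. ARNT2, a dimer partner of HIF alpha subunits, read 571.5 and 501.1 in Tibetan and 691.4 to 742 on the lowland arrays (-0.42 ± 0.15, adjusted p = 0.426). The list's median was -0.11, and its sign turned without Shouguang hypoxia replicate 1.

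Targets of HIF outside glycolysis had the highest share of members outside of the 27 lists. Of 32 members, 0 passed the test and 11, or 34.4%, were outside, all of them higher in Tibetan. Their median difference was 0.19, with 23 above 0 and 9 below, and 8 reached an unadjusted p under 0.05. PDK4, a kinase that shuts off pyruvate dehydrogenase, read 12830 and 13000 in Tibetan, 2055 and 6894 in Shouguang, and 5943 and 5216 in Dwarf Recessive White (1.50 ± 0.36, adjusted p = 0.204). On the log2 scale, the Shouguang replicates of PDK4 differed more from each other than Tibetan did from the nearest lowland array. PLOD1, a collagen lysyl hydroxylase, read 4157 and 3353 in Tibetan and 2507 to 2838 on the lowland arrays (0.47 ± 0.11, adjusted p = 0.218). VEGFA, the main growth factor of vessels, read 827.7 and 1186 against 662.1 to 803.7 (0.47 ± 0.19, adjusted p = 0.507), with the lower Tibetan array close to the highest lowland one. The co-regulator CITED2 differed by 0.63 ± 0.20, the nuclear receptor RORA by 0.79 ± 0.23, the kinase PDK1 by 0.30 ± 0.09, the mitophagy receptor BNIP3 by 0.25 ± 0.10 and the transferrin receptor TFRC by 0.35 ± 0.14. In normoxia the same list had a median of 0.03, with 5 members outside and higher and 2 outside and lower. Members outside in the same direction in both conditions numbered 3: PDK4, PLOD1 and CITED2. Over all genes 3.53% were outside in the same direction in both conditions.

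**Figure D4:**
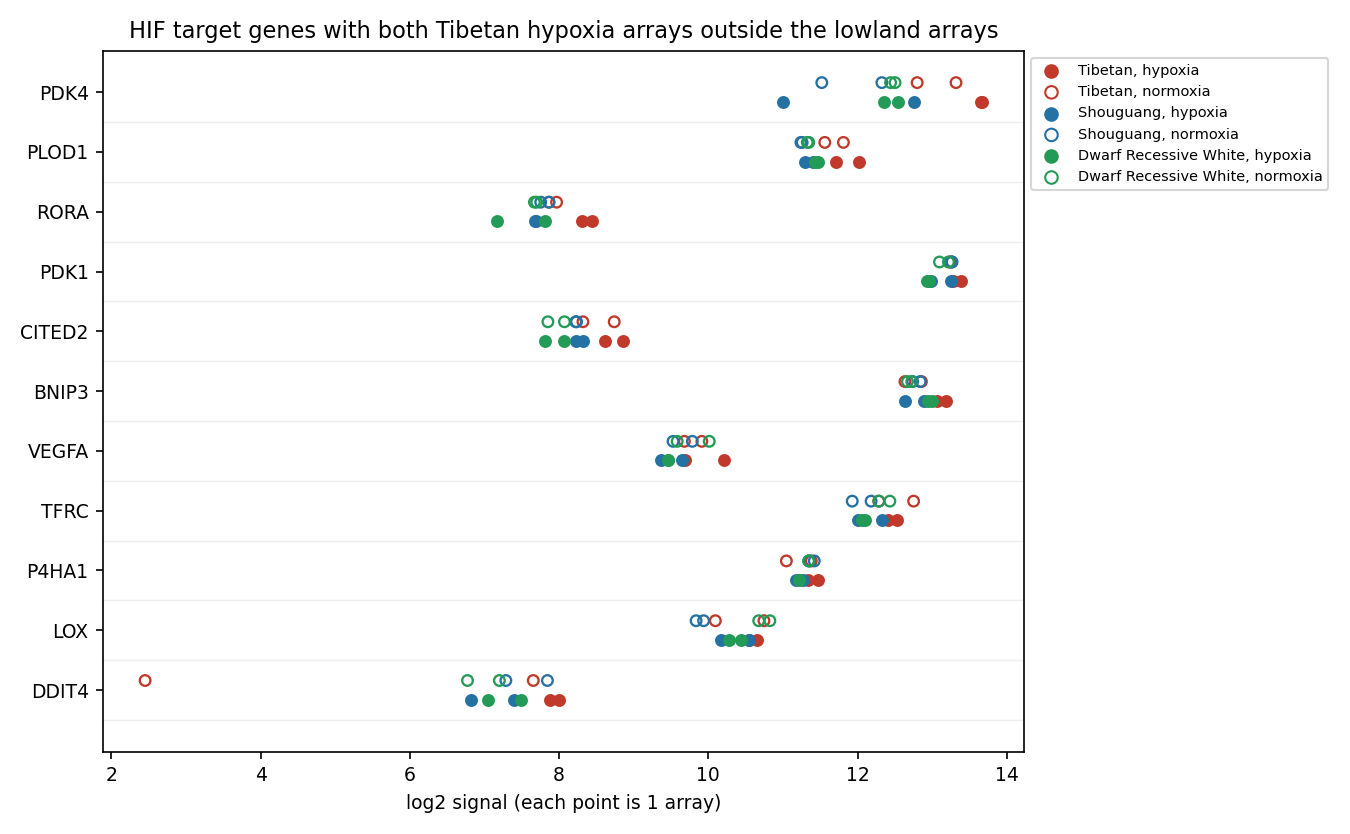
Log2 signal of the 11 HIF target genes outside glycolysis whose Tibetan hypoxia arrays (filled red) lie above all 4 lowland hypoxia arrays (filled blue and green); open points are the normoxia arrays. PDK4 shows the widest gap and P4HA1 and LOX lie within a narrow margin of the lowland points.

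Glycolysis and glucose transport gave 7 of 23 members outside, 6 higher and 1 lower, with a median of 0.10 in hypoxia and -0.11 in normoxia. LDHA, which makes lactate, read 7377 and 7236 in Tibetan, 6892 and 5520 in Shouguang, and 6413 and 6015 in Dwarf Recessive White (0.24 ± 0.10, adjusted p = 0.529). PFKM, the muscle phosphofructokinase, read 8634 and 9616 in Tibetan and 5789 to 7912 on the lowland arrays (0.34 ± 0.12, adjusted p = 0.429). The glucose transporter SLC2A1 differed by 0.03 ± 0.14 (adjusted p = 0.976), a value whose sign turned with median centring (-0.07). In these 2 lists the medians kept their sign under the alternatives, at 0.01 to 0.18 for glycolysis and 0.10 to 0.26 for the HIF targets. The lowest values came with median centring. There 12 of 23 glycolysis members lay above 0, where the main fit had 18, and 20 of 32 HIF targets, where it had 23. The size of both medians therefore depends on the scaling.

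More genes of fatty acid oxidation and of oxidative phosphorylation lay above 0 than below it, the latter with a median that turned with median centring. Of 25 genes of fatty acid uptake and oxidation, 22 lay above 0, with 5 outside and higher and 1 outside and lower, and the median was 0.14. With median centring 16 lay above 0 and the median was 0.04. HADHB, the beta subunit of the mitochondrial trifunctional protein, read 24990 and 23330 in Tibetan and 17580 to 20990 on the lowland arrays (0.31 ± 0.09, adjusted p = 0.283). CD36, a fatty acid transporter, read 19640 and 17960 against 9843 to 15670 (0.51 ± 0.15, adjusted p = 0.333). Shouguang hypoxia replicate 1 was the lowest array for both. Of 56 subunits of oxidative phosphorylation, 41 lay above 0 in hypoxia and 18 in normoxia. In hypoxia 10 were outside and higher and 1 outside and lower, or 19.6% outside, near the 16.9% of all genes. NDUFS3, a core subunit of complex I, read 1312 and 1167 in Tibetan and 849.8 to 955.1 on the lowland arrays (0.47 ± 0.14, adjusted p = 0.326), and it was outside in normoxia too. The exception was ATP5J2, a subunit of the ATP synthase, with 432.2 and 389.9 in Tibetan and 599.3 to 848.3 on the lowland arrays (-0.79 ± 0.22). The median of this list was 0.07 and turned to -0.02 when arrays were centred on their medians, so its direction depends on the scaling. The 19 genes of the tricarboxylic acid cycle had a median of 0.03, whose sign turned with the same scaling.

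None of the contractile genes or cardiac transcription factors passed the test. Of 41 genes of contraction and calcium handling, 5 were outside and higher and 2 outside and lower, with a median of 0.05 that turned with median centring. Myoglobin (MB), the oxygen store of muscle, read 36010 and 35870 in Tibetan, 31440 and 34960 in Shouguang, and 27850 and 28580 in Dwarf Recessive White (0.23 ± 0.07, adjusted p = 0.338). MYOM1, a protein of the sarcomere's M band, read 12410 and 14080 against 7166 to 10420 (0.53 ± 0.12, adjusted p = 0.17). NPPA, the atrial natriuretic peptide, differed by 0.08 ± 0.07 (adjusted p = 0.79) and TNNT2, cardiac troponin T, by 0.05 ± 0.08 (adjusted p = 0.9), and both signs turned with median centring. Among 17 cardiac transcription factors 3 were outside and higher and 1 outside and lower, with a median of 0.08 that turned to -0.02 with median centring. The lower one was NKX2-5, a heart lineage factor and one of the heart markers above, at 5527 and 4527 in Tibetan and 5563 to 6547 on the lowland arrays (-0.26 ± 0.16, adjusted p = 0.706). GATA5 read 13890 and 16780 in Tibetan and 10770 to 12550 on the lowland arrays (0.40 ± 0.10, adjusted p = 0.238). The normoxia difference of GATA5 was -0.03.

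Genes of the vessel wall and connective tissue lay below 0 more often than above it in the smooth muscle and matrix lists. Of 10 smooth muscle and pericyte genes, 8 lay below 0 and 3 were outside and lower, with a median of -0.17 in hypoxia and -0.19 in normoxia. MYLK, the myosin light chain kinase, read 9421 and 10370 in Tibetan and 11970 to 16060 on the lowland arrays (-0.45 ± 0.12, adjusted p = 0.269). TAGLN, the actin-binding transgelin, differed by -0.54 ± 0.19 and MYL9, a regulatory light chain, by -0.24 ± 0.09, and both were outside in normoxia as well. The summed signal of the 12 measured smooth muscle markers out of 15 was 35302 to 36705 in Tibetan, 43231 to 43597 in Shouguang and 42062 to 45135 in Dwarf Recessive White, with none at a signal of 0. This sum adds linear signals, and MYLK and MYL9 make up most of it on every hypoxia array. It therefore largely restates these genes, which were named for lying outside. In whole hearts, fewer cells of a type and less RNA per cell cannot be told apart. Of 48 matrix and fibroblast genes, 31 lay below 0, 6 were outside and lower and 2 outside and higher, with a median of -0.09. FBLN1, the matrix protein fibulin-1, read 2915 and 3484 in Tibetan and 4521 to 4983 on the lowland arrays (-0.55 ± 0.11, adjusted p = 0.113), and its normoxia difference was -0.52, also outside. PDGFRB, the growth factor receptor of pericytes and fibroblasts, went the other way, with 2250 and 1949 against 1418 to 1637 (0.45 ± 0.11, adjusted p = 0.203). Of 34 endothelial and angiogenic genes 24 lay above 0, with a median of 0.07 that turned to -0.02 with median centring. In this list 3 were outside and higher (NOTCH1, VEGFA and KDR) and 5 outside and lower (ANGPT1, NRP2, PECAM1, CXCR4 and DLL4). PECAM1, an adhesion protein of endothelial cells, read 3239 and 3088 in Tibetan and 3290 to 4392 on the lowland arrays (-0.26 ± 0.14, adjusted p = 0.654). NOTCH1, a receptor of vessel and valve formation, read 2216 and 2047 in Tibetan, 1374 and 1177 in Shouguang, and 1674 and 1499 in Dwarf Recessive White (0.59 ± 0.13, adjusted p = 0.159), and it was outside in normoxia with 0.63.

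Red blood cell genes were outside and lower in 7 of 27 members and outside and higher in 2, which makes 33.3% outside, with a median of -0.13 in hypoxia and 0.04 in normoxia. HBE, an embryonic beta-type globin, read 530 and 820.9 in Tibetan, 1091 and 889.3 in Shouguang, and 3821 and 2230 in Dwarf Recessive White (-1.36 ± 0.28, adjusted p = 0.125). The Shouguang arrays lay close to Tibetan and Dwarf Recessive White far above, and against that breed alone the difference passed (-2.15 ± 0.32, adjusted p = 0.0237). HBZ, an embryonic alpha-type globin, read 34.15 and 160 in Tibetan and 170.1 to 300.5 on the lowland arrays (-1.71 ± 0.51, adjusted p = 0.338). Tibetan replicate 1 of HBZ was under the dim limit, and raised to it the difference was -1.10. HBAD, the alpha-D globin, read 44700 and 39340 in Tibetan and 44720 to 47980 on the lowland arrays, with the groups all but touching. The summed signal of the 27 red blood cell genes on the array, of 37 listed, was 132298 to 137955 in Tibetan, 139528 to 140170 in Shouguang and 138729 to 141072 in Dwarf Recessive White. This sum adds linear signals, so bright genes such as HBAD, itself named for lying outside, weigh most. The highest Tibetan sum lay close to the lowest lowland one, and the part of blood content in these values was not tested.

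Leukocyte genes had a median of -0.23 over 17 members, with 12 below 0 but 1 outside in each direction. That is 11.8% outside, under the 16.9% of all genes. The summed signal of the 24 genes on the array, of 32 listed, was 6349 to 7707 in Tibetan. It overlapped Shouguang (6353 to 7981) and lay under Dwarf Recessive White (8355 to 8686), and its part in the results was not tested. None of 11 antigen presentation genes was outside, and 2 of 16 interferon response genes (12.5%) were, both higher. Of 57 cell cycle genes NUF2 alone passed the test, 40 lay below 0, 7 were outside and all of these were lower, with a median of -0.07. MCM2, a subunit of the replicative helicase, read 2042 and 2160 in Tibetan and 2597 to 3047 on the lowland arrays (-0.38 ± 0.11, adjusted p = 0.315), and TTK, a kinase of the spindle checkpoint, differed by -0.35 ± 0.14.

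Of 44 heat shock and endoplasmic reticulum stress genes, HSPB9 alone passed, and 4 were outside, all lower. PDIA4, a protein disulfide isomerase, read 2272 and 2730 in Tibetan and 3186 to 4128 on the lowland arrays (-0.51 ± 0.14, adjusted p = 0.282). Of 39 antioxidant genes 1 was outside and higher and 3 outside and lower, or 10.3% outside, under the 16.9% of all genes. GLRX, a glutaredoxin, read 669.1 and 522.1 in Tibetan, 1150 and 1045 in Shouguang, and 724 and 1089 in Dwarf Recessive White (-0.74 ± 0.20, adjusted p = 0.287). In normoxia its difference was -0.04, with all arrays between 318.6 and 477.5. Ribosomal protein genes had 2 of 60 members outside in each direction, or 6.67% outside, and a median of 0.02, whose sign turned with median centring.

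**Figure D5:**
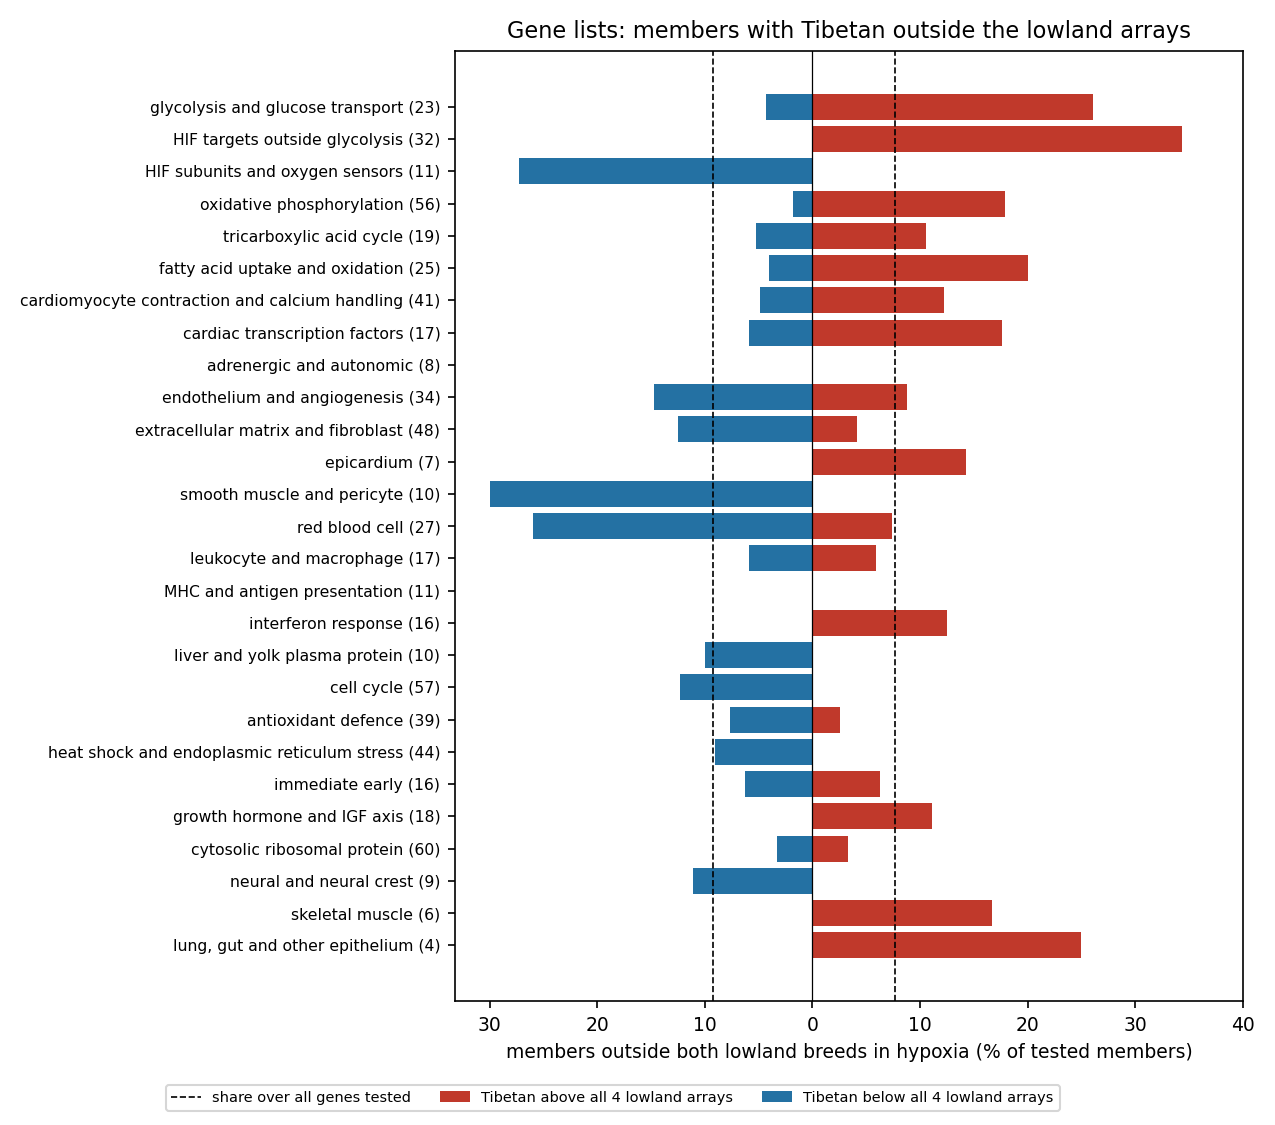
Share of tested members of each of the 27 gene lists whose Tibetan hypoxia arrays lie above (red, to the right) or below (blue, to the left) all 4 lowland hypoxia arrays, in percent; the number of members stands in brackets and dashed lines mark the shares over all 10276 genes, 7.67% above and 9.26% below. HIF targets reach 34.4% above with none below, and red blood cell genes lean below.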

How the data were processed

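Total RNA of embryonic hearts was hybridised to 1-colour Affymetrix arrays. The authors deposited a linear signal intensity for each probe set, computed with GCOS per the submitters' processing notes; the sources used here give neither its version nor its settings. No sequence or detection call was used here. The GRCg7b genome build entered only through a gene table, for symbols, chromosomes and gene order. From the 38535 probe sets the 96 controls were left out. Signals were put on the log2 scale without further normalization, and the 23063 probe sets whose mean log2 signal reached the 40th percentile (6.31, the dim limit of 79.5) were tested. A table of gene symbols, updated through a GRCg7b gene table, gave 27178 probe sets 1 symbol, 177 several and 11180 none; only the first kind was named.

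In R 4.3.3 with limma 3.58.1, means for the 6 groups were fitted over all 12 arrays, with trended variance moderation (residual degrees of freedom 6, prior 6.16). Tests were two-sided, with Benjamini-Hochberg adjustment over all probe sets of a contrast and a threshold of 0.05. Where leaving out an array leaves 1 in its group, that array is assumed to vary like the others. The procedure was tested on simulated data.

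Named are the probe sets that passed with both Tibetan arrays outside all 4 lowland arrays, up to 12 in each direction, a set of hypoxia, heart and W-linked genes, the 5 smallest p-values of the difference between conditions, and list members outside. HBAA of that set was not measured here. The 27 lists hold 884 genes; 665 list places were tested, 17 of them through an older symbol. Members, lists and tests were chosen with earlier results of these data known. Alternatives changed the filter, the scaling, the treatment of dim signals, the variance trend, the arrays fitted, the probe set per gene, a replicate block, a W-linked covariate, the Z and W genes, and left out each array in turn.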

Additional observations from a re-analysis of the deposited data

Results flagged for a closer look

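Among the genes named or listed, 3 lay outside both lowland breeds in hypoxia and outside in the opposite direction in normoxia. This count uses 1 probe set per gene, and the lists held 665 tested places. Over all genes with 1 probe set each, 32 did so, or 0.311%. Another probe set of NSD1, not counted here, did so too. It read 160.5 and 226.1 in Tibetan hypoxia against 237.9 to 290.2, and 354.9 and 329.6 in Tibetan normoxia against 273.1 to 325. The difference between the conditions was tested in the limma fit, and none of the 3 passed (adjusted p = 0.9999 each).

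LDHA, lactate dehydrogenase A, read 7377 and 7236 in Tibetan hypoxia against 5520 to 6892, and 4832 and 4310 in Tibetan normoxia against 5020 to 5256. The difference between conditions was 0.41 ± 0.14. SIAH1, a ubiquitin ligase that acts on oxygen-sensing prolyl hydroxylases, read 125.6 and 132.5 in Tibetan hypoxia against 146 to 189.1, and 191.4 and 245.9 in Tibetan normoxia against 134.3 to 144.6. Its difference between conditions was -1.02 ± 0.37. HADH, an enzyme of fatty acid oxidation, read 14570 and 14510 in Tibetan hypoxia against 12970 to 13980, and 13810 and 13780 in Tibetan normoxia against 14530 to 15370. The difference between conditions was 0.23 ± 0.10.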

How the results depend on the processing

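With 2 arrays per group, the number of arrays limits the precision, and the count of 18 moved with several choices. It was 6 with no filter on dim probe sets, 29 with dim signals raised to the limit, 4 with no intensity trend, 11 with only the 6 arrays compared, and 4 with the W-linked covariate. Stricter filtering gave 15, quantile normalization 20, median centring 17, 1 probe set per gene 12, and no Z and W genes 18. Against Shouguang the count of 12 became 7 with median centring, 7 with no trend, 6 with 1 probe set per gene and 6 with the covariate. Against Dwarf Recessive White the count of 30 became 6 with no trend, 12 with 1 probe set per gene and 17 with the covariate. In normoxia the count of 11 became 3, 4 and 1 under the same settings, in that order. The cause was not tested. Leaving out each array in turn gave 6 to 25 for the hypoxia comparison (6 without Shouguang hypoxia replicate 1, either Dwarf Recessive White hypoxia array or either Tibetan normoxia array, and 10 without Tibetan hypoxia replicate 1), 8 to 60 against Shouguang (60 without Shouguang hypoxia replicate 2), 12 to 34 against Dwarf Recessive White, 5 to 18 in normoxia and 0 to 1 for the difference between conditions, which was 0 under all other settings.

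With the replicate number as a block, 89 probe sets passed in hypoxia (37 higher and 52 lower, with all 18 among them), 51 against Shouguang, 107 against Dwarf Recessive White, 40 in normoxia and 0 for the difference. The numbers were not taken to pair arrays in the main fit. Deviations of same-numbered arrays correlated at 0.059 to 0.199 over 15 pairs of groups. All 15 correlations were positive, and not all were above 0.1. Whether same-numbered arrays share an effect was not tested.

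No difference of the 13 genes changed sign under any setting. With an array left out, EPAS1 ranged from -0.10 to 0.30, SLC2A1 from -0.06 to 0.12, NPPA from -0.00 to 0.17 and TNNT2 from -0.01 to 0.11. Signs turned for EPAS1 (-0.10 without Tibetan hypoxia replicate 2), SLC2A1 (-0.07 with median centring, -0.06 with the covariate, -0.05 without Tibetan hypoxia replicate 2 and -0.06 without Shouguang hypoxia replicate 1), NPPA (-0.01 with median centring and -0.00 without Tibetan hypoxia replicate 1), TNNT2 (-0.00 with quantile normalization, -0.04 with median centring, -0.01 without Tibetan hypoxia replicate 1 and -0.00 without Shouguang hypoxia replicate 1) and HINTW, a W-linked gene at 1.15 ± 0.97 in hypoxia (-0.78 with the covariate). None of these 5 genes passed the test.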

Other observations

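Some gene groups outside the oxygen and heart muscle lists were also measured, and none of their members passed the hypoxia test. Immediate early genes had 1 of 16 members outside in each direction in hypoxia, with a median of 0.08 that turned with median centring, and in normoxia 7 were outside and higher and none lower, with a median of 0.23. Cytosolic ribosomal protein genes likewise had 9 of 60 members outside and higher in normoxia and 2 in hypoxia. For comparison, 16.9% of all 10276 genes were outside in hypoxia and 14.9% in normoxia, in normoxia 758 genes higher and 774 lower. The difference between the conditions was not tested for the lists as such. SOCS1, an inhibitor of cytokine and growth hormone signalling, read 1415 and 1618 in Tibetan hypoxia against 626.9 to 1129 on the lowland arrays (0.76 ± 0.23, adjusted p = 0.341). ALDH1A2, the retinoic acid synthesizing enzyme of the epicardium, read 2639 and 2558 against 1728 to 2091 (0.40 ± 0.13, adjusted p = 0.398) and was outside in normoxia too.

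Of the neural list, GJD2, which encodes a connexin of electrical synapses, was outside and lower, at 149.7 and 145.8 in Tibetan against 304.3 to 445.5 (-1.22 ± 0.23, adjusted p = 0.107). The summed signal of the neural markers was 5284 to 6313 in Tibetan, 5116 to 6115 in Shouguang and 7475 to 7725 in Dwarf Recessive White. Liver and yolk plasma protein genes summed to 5562 to 8986 in Tibetan, 5463 to 6387 in Shouguang and 5975 to 6759 in Dwarf Recessive White, so the Tibetan replicates differed more from each other than the lowland arrays did. No adrenergic or autonomic gene of 8 was outside, and skeletal muscle and other epithelium had 1 member outside each, both higher.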
